A study of Mus musculus with 12 samples.

Results

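The meningeal fibroblast genes described here were Col1a1, Col1a2, Col3a1, Dcn, Lum, Slc6a13, Foxc1 and Aldh1a2, that is 8 of the 46603 genes counted in mouse neocortex. They were taken by symbol as genes used to mark fibroblasts of the meninges, and each symbol matched a single Ensembl identifier in the tables of both developmental stages. All 8 passed the filter on low counts in every comparison. The RNA came from whole tissue, so the counts do not show which cells carried it, and fewer fibroblasts and less RNA per fibroblast cannot be told apart.

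The samples were neocortices of mice with 1 intact and 1 null allele of Chd8, which encodes an ATP-dependent chromatin remodeller of the CHD family, and of Chd8+/+ controls. The tissue was taken at embryonic day 12.5 (E12.5, both hemispheres) and at postnatal day 5 (P5, 1 hemisphere), with 3 RNA-seq libraries per genotype and stage and 12 in all. All mice were on the C57Bl/6J background, and the null allele came from deletion of a floxed exon 3 with Cre driven by the ubiquitous beta-actin promoter, so every cell type that could express these genes carried it. Sex was not given. Since nothing in the labels says that the 3 libraries of a group came from separate animals, p-values measure the spread between these libraries, which may be technical.

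The meninges are the connective tissue sheets around the brain, and in the embryo their fibroblasts come largely from the neural crest over the forebrain. They lay down a collagen-rich matrix, anchor the basement membrane to which radial glia attach, and release retinoic acid and other signals that act on the cortex beneath. As the meninges mature the fibroblasts sort into pial, arachnoid and dural layers with different transporters, enzymes and matrix proteins, and fibroblasts of the same kind enter the brain along larger vessels.

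Each library held 38774591 to 54695236 counted reads, with a median of 45461819. Values are given in counts per 1000000 counted reads (CPM) after TMM scaling, which equalises library composition across the 12 libraries, and levels of different genes are compared only per kilobase of exon (RPKM). Chd8 itself, counted over its whole length although only exon 3 was deleted, was at 234, 229 and 235 CPM in the E12.5 Chd8+/+ libraries and at 162, 167 and 161 CPM in the E12.5 Chd8+/- libraries. Its P5 level was 151, 151 and 145 CPM in Chd8+/+ and 95.7, 98.6 and 95 CPM in Chd8+/-, so each Chd8+/- library lay below each Chd8+/+ library of its stage. Chd8 fell by 0.51 on the log2 scale at E12.5 (SE 0.0394, adjusted p = 0.00562) and by 0.61 at P5 (SE 0.0343, adjusted p = 7.21e-05), by edgeR's quasi-likelihood test with Benjamini-Hochberg adjustment over all genes tested, as used throughout. The E12.5 change was -0.52 to -0.50 with 1 library left out, and its adjusted p, which ranged from 0.00502 to 0.141, passed 0.05 without Chd8+/+ replicate 3, Chd8+/- replicate 1 or Chd8+/- replicate 3.

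Several libraries stood apart in ways that touched the 8 genes. E12.5 Chd8+/- replicate 2 exceeded each of the other 5 E12.5 libraries by at least 1.5-fold for 228 of 18081 genes (1.26%), against 1 to 42 genes in the others. Of the 8 members, 2 were among the 228, Col1a1 at 1.74 and Col1a2 at 1.61 times the next highest library. The excess genes, picked after their values were seen, included Shox2, a homeobox gene of the thalamus and limb, at 24.9 CPM against 0.307 to 0.554 CPM elsewhere, Irx2 at 8.03 CPM against at most 0.414 CPM and Olig3 at 12.6 CPM against at most 0.920 CPM. Its summed neocortical markers were the lowest of the stage, at 1335 CPM against 1525 to 1598 CPM in Chd8+/+. Of the lists described later, 8 of 34 fibroblast matrix genes, 6 of 35 meningeal layer genes, 2 of 12 mural cell genes, 2 of 18 retinoic acid genes and 1 gene each of the lists for bone, cartilage and skeletal muscle, erythrocytes, choroid plexus and microglia were among the 228, for example Six2 at 23.3 CPM against at most 9.99 CPM and Twist1 at 11.5 CPM against at most 2.97 CPM. E12.5 Chd8+/- replicate 3 was apart for 12 genes, including Aldh1a2 and the epithelial keratin genes Krt8 and Krt18. P5 Chd8+/- replicate 3 was apart for 20 genes. By fold these were led by small structural RNA genes such as Rpph1, at 19.6 CPM against at most 0.391 CPM, and Rn7sk, at 53.8 CPM against at most 2.85 CPM, and by level by CT010467.1, at 15470 CPM against at most 2283 CPM, and Lars2, at 6255 CPM against at most 995 CPM. The part of these features in the members' levels in this library was not tested.

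All 8 genes lie on the plus strand in GRCm38, the build of the count tables. Col1a1 (ENSMUSG00000001506) spans chr11:94936224-94953042 and Col1a2 (ENSMUSG00000029661) chr6:4504814-4541544, with 52 and 48 counted exons. Col3a1 (ENSMUSG00000026043) spans chr1:45311538-45349706 with 50 exons, 141 bases of which are shared with the predicted gene Gm47302 on the same strand. Dcn (ENSMUSG00000019929) at chr10:97479500-97518162 and Lum (ENSMUSG00000036446) at chr10:97565501-97572703 are neighbours, 47338 bases apart with no annotated gene between them. Slc6a13 (ENSMUSG00000030108) spans chr6:121300227-121337733, Foxc1 (ENSMUSG00000050295), a gene of 1 exon, chr13:31806691-31810643, and Aldh1a2 (ENSMUSG00000013584) chr9:71215789-71296243.

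Upstream sequence from RefSeq (GRCm38.p6) was matched for 5 of the 8 genes in 7 promoter windows, each the 250 bases before a RefSeq start, and it is shown for 4 genes whose levels moved apart between the stages, to set their base composition and promoter motifs side by side. The windows are chr1:45311288-45311537 for Col3a1, chr6:121300038-121300226 for Slc6a13, chr13:31806396-31806645 for Foxc1 and chr9:71215539-71215788 for Aldh1a2, all on the plus strand and read 5′ to 3′ up to the RefSeq start, or for Slc6a13 up to the first base of the gene as counted, which lies before its RefSeq start. Capitals mark the searched motifs, which were the CCAAT box (CCAAT or, on the minus strand, ATTGG), the TATA box (TATAAA or TTTATA) and the GC box (GGGCGG or CCGCCC).
Col3a1: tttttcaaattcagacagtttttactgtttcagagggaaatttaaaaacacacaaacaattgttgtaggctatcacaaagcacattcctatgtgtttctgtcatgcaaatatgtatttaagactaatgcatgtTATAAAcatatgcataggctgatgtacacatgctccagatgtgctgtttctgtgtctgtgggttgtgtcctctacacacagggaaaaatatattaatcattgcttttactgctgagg
Slc6a13: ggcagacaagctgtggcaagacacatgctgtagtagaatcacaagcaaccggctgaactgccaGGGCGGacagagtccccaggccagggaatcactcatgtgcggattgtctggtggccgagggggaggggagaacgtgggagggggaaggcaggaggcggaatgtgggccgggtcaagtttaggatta
Foxc1: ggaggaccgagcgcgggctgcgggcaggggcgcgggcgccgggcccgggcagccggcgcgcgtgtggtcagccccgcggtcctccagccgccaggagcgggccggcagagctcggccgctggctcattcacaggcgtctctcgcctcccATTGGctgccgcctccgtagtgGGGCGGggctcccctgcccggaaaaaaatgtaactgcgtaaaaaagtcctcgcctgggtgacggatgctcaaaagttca
Aldh1a2: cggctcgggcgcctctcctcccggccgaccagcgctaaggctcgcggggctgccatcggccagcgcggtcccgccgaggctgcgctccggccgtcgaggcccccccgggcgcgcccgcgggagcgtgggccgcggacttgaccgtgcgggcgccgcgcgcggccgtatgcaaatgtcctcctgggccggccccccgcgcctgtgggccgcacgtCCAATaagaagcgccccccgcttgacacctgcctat
Col3a1 was the AT-rich member, with 35.2% G and C against a median of 52.4% over all windows and a TATA box 117 bases before the start. Slc6a13 (59.8% G and C) held a GC box 187 bases before its RefSeq start. Foxc1 (70.8%) held a CCAAT box on the minus strand at 101 bases and a GC box at 79 bases before the start, and Aldh1a2 (77.6%) a CCAAT box at 36 bases. Of the 7 windows, 4 held a CCAAT box, 3 a GC box and 1 a TATA box, in printed and unprinted bases, where 33.8%, 32.7% and 12.4% of all 32851 windows did. The forkhead motif (GTAAACA or TGTTTAC) was in none of the 7 windows and in 3.17% of all windows. A match is a string of letters and does not show binding, and the absence of a match says only that these letters are not in the window.

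Together the 8 genes took up 0.0514% to 0.108% of the counts at E12.5 and 0.0306% to 0.0390% at P5. Their summed level was 783, 612 and 705 CPM in E12.5 Chd8+/+, 510, 1061 and 685 CPM in E12.5 Chd8+/-, 353, 322 and 323 CPM in P5 Chd8+/+ and 386, 305 and 398 CPM in P5 Chd8+/-. The 3 collagens made up 84.8% to 88.5% of the sum at E12.5 and 72.5% to 74.4% at P5. The highest and the lowest sum of a stage were both in Chd8+/- libraries, at E12.5 and at P5.

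**Figure D1:**
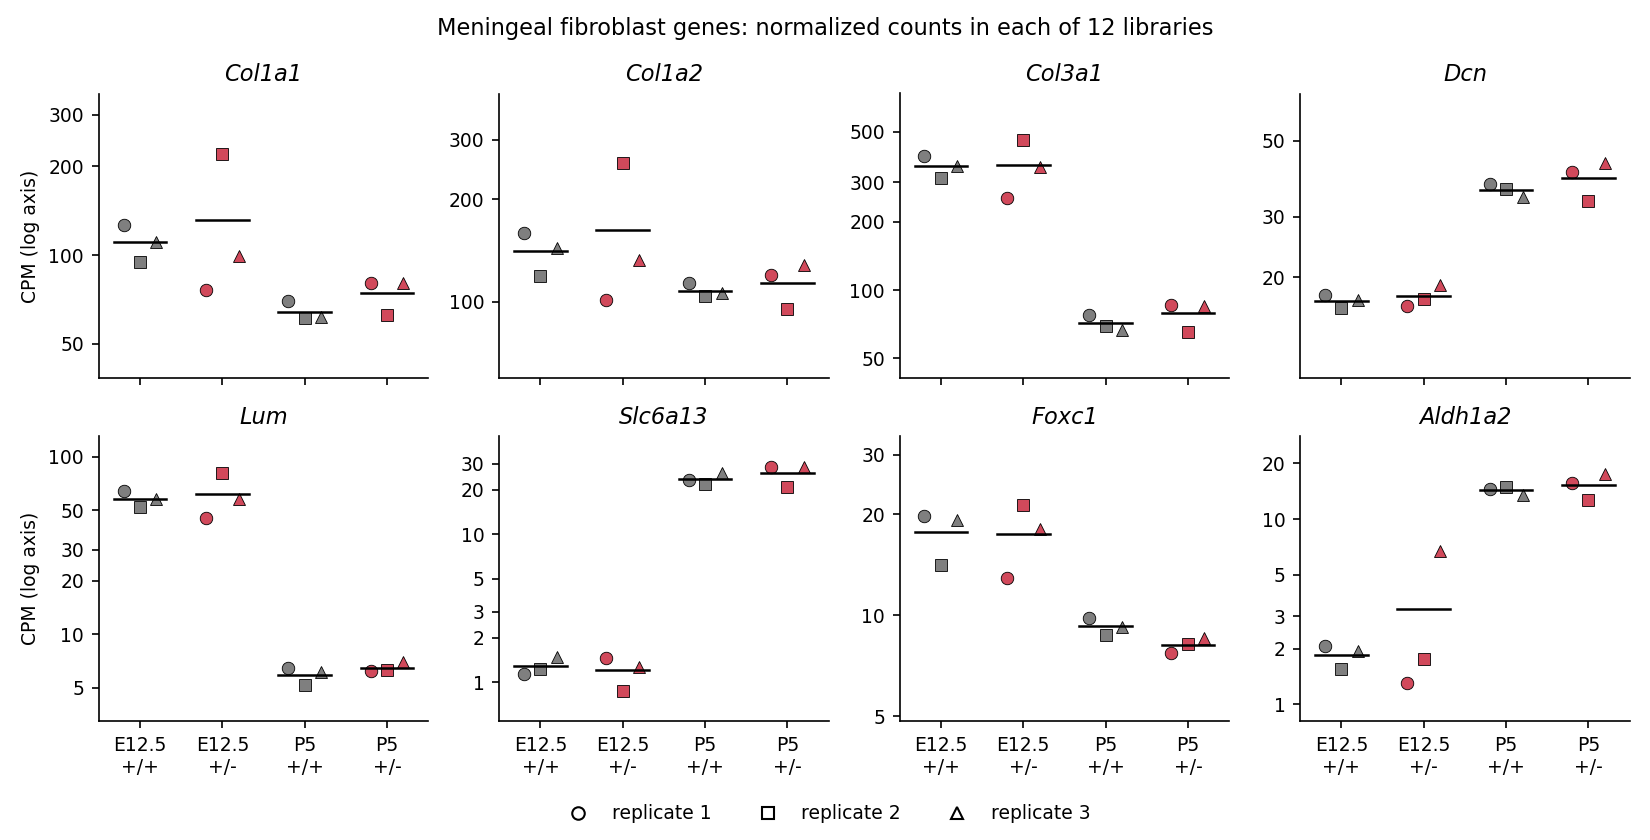
Level of each of the 8 genes in each of the 12 libraries, in CPM on a log axis, by stage and genotype (grey, Chd8+/+; red, Chd8+/-; circle, square and triangle, replicates 1, 2 and 3; black bar, mean of 3). Slc6a13 sits between 0.872 and 1.48 CPM at E12.5 and between 20.8 and 28.7 CPM at P5, Lum goes the other way, and the Chd8+/- points for Col1a1 and Aldh1a2 at E12.5 each hold 1 high library.

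Per kilobase of exon, Col3a1 (35.9 ± 4.03 RPKM, SD, n = 3) and Lum (27.9 ± 2.86) were the most abundant of the 8 genes in E12.5 Chd8+/+ neocortex. Col1a1 (16.9 ± 2.49), Col1a2 (11.3 ± 1.62), Dcn (8.17 ± 0.351), Foxc1 (4.48 ± 0.782), Aldh1a2 (0.823 ± 0.119) and Slc6a13 (0.441 ± 0.0625) followed, and no neighbours in this order overlapped. At P5 the order in Chd8+/+ was led by Dcn (17.2 ± 0.756 RPKM), with Col1a1 (9.80 ± 0.761), Col1a2 (8.68 ± 0.439), Slc6a13 (8.15 ± 0.672), Col3a1 (7.29 ± 0.596) and Aldh1a2 (6.34 ± 0.339) close together, and Lum (2.86 ± 0.318) and Foxc1 (2.34 ± 0.140) last. Slc6a13 overlapped both of its neighbours in that order. The order of the means was identical in Chd8+/- at both stages, where more neighbours overlapped, namely the first 4 steps at E12.5 and every step from Col1a1 to Aldh1a2 at P5.

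In the comparison of genotypes, which asks whether loss of 1 Chd8 allele changed these genes, no member passed the test at either stage. At E12.5, 0 of 8 were called and 0.00553% of all 18081 genes tested were (1 gene, Chd8). At an unadjusted p under 0.05 the members numbered 0 of 8, against 5.15% of all genes. The genotypes overlapped for all 8, against 11.4% of all genes without overlap, and 6 of 8 log2 fold changes were above 0, against 50.2% of all genes. At P5, 0 of 8 were called, against 0.00536% of 18666 genes (again 1), 1 of 8 had an unadjusted p under 0.05 (Col1a1), against 17.8%, and 7 of 8 were above 0, against 50.4%. Only Foxc1 had groups that did not overlap at P5, where 23.4% of all genes did not. DESeq2 called 5 genes (0.0374%) at E12.5 and 653 (5.28%) at P5, with 0 of 7 members at E12.5, where Slc6a13 had no adjusted p, and 0 of 8 at P5. Without E12.5 Chd8+/- replicate 2, edgeR called 0 of 8 members and 2 of 18420 genes at E12.5, where 3 of 8 log2 fold changes were then above 0, and without P5 Chd8+/- replicate 3 it called 0 of 8 and 5 of 18932 at P5. Without P5 Chd8+/- replicate 2 it called 2 of 8, Col1a1 and Col3a1, and 327 of 19044 genes (1.72%). Without the filter on low counts it called Col1a1 at P5 (adjusted p = 0.0146) among 995 of 31265 genes (3.18%). The genotype difference was not shown to differ between the stages for any member, with 0 of 8 called in the interaction, 0 of 19676 genes called there by edgeR (0%), 1972 genes at an unadjusted p under 0.05, and 8 genes (0.0938%) called by DESeq2.

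In the comparison of stages, Slc6a13, Aldh1a2 and Dcn were higher at P5 than at E12.5, and Lum, Col3a1, Foxc1 and Col1a1 were lower, in both genotypes. Col1a2 was not called in either. That is 3 of 8 members higher and 4 of 8 lower in each genotype, where 41.4% of all 19676 genes were called higher and 41.7% lower in Chd8+/+, and 41.3% and 41.6% in Chd8+/-. With 83.1% and 82.9% of all genes called, 7 of 8 is close to the background share. The stages did not overlap for 8 of 8 members in Chd8+/+ (84.2% of all genes) and for 6 of 8 in Chd8+/- (84.1%), where Col1a1 and Col1a2 overlapped. The stages differ also in the hemispheres taken and in the library set and count table they belong to, so these and development cannot be told apart, and the E12.5 groups enter both the stage and the genotype comparisons.

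**Figure D2:**
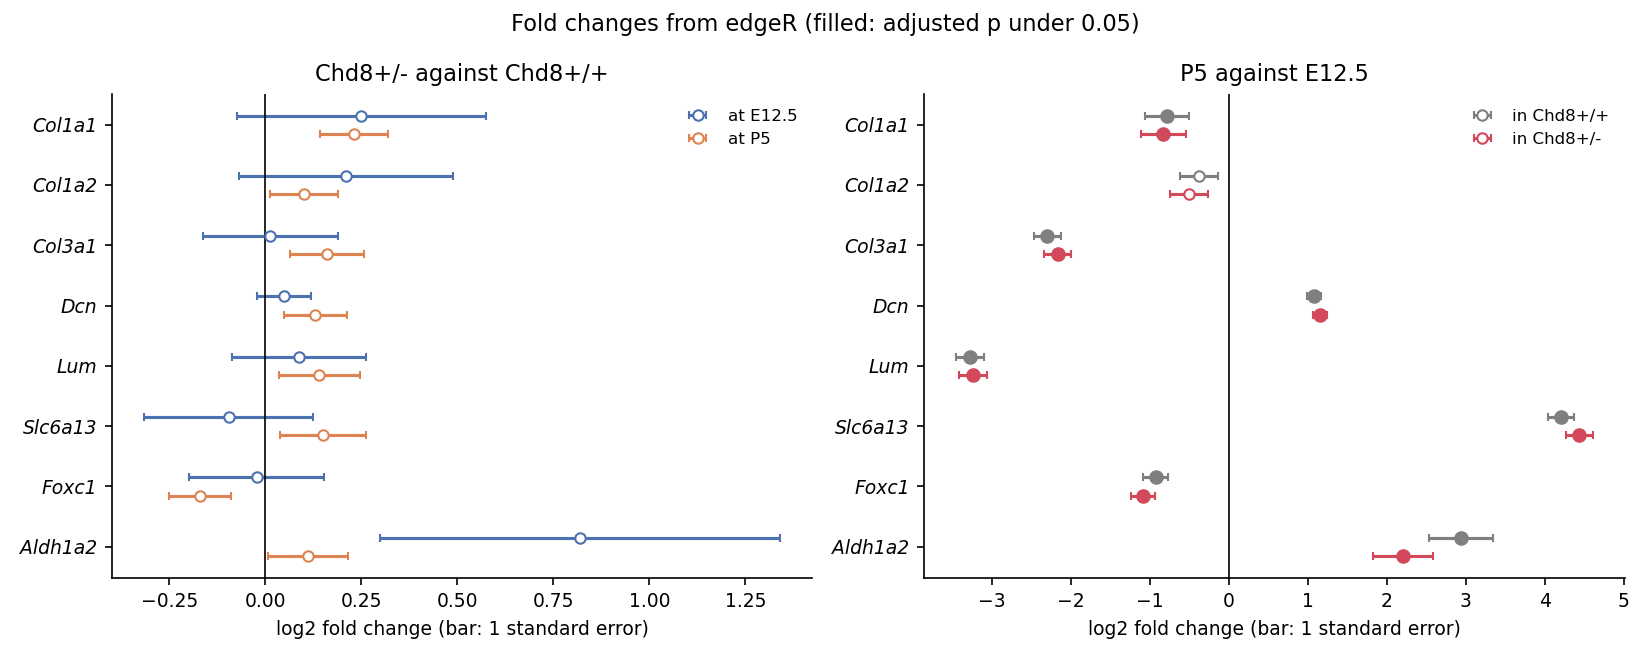
Log2 fold change of each of the 8 genes with 1 SE, for Chd8+/- against Chd8+/+ at each stage (left) and for P5 against E12.5 in each genotype (right), where filled points have an edgeR adjusted p under 0.05. No genotype point is filled, and the stage values run from -3.28 for Lum to 4.44 for Slc6a13.

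The fibrillar collagen genes encode the chains of type I collagen (Col1a1 and Col1a2, which assemble in a triple helix) and of type III collagen (Col3a1), which forms finer fibrils in soft connective tissue. Col1a1 was at 127, 94.5 and 111 CPM in E12.5 Chd8+/+ and at 76.0, 221 and 99.5 CPM in E12.5 Chd8+/-, and at P5 it was at 70.0, 61.1 and 61.7 CPM in Chd8+/+ and 80.3, 62.7 and 80.2 CPM in Chd8+/-. At E12.5 the Chd8+/- libraries held both the lowest value and the highest, and at P5 replicate 2 of Chd8+/- lay within the Chd8+/+ range while the others lay above it. The genotype difference was 0.25 at E12.5 (SE 0.323, adjusted p = 0.977) and 0.23 at P5 (SE 0.0890, adjusted p = 0.228). Without E12.5 Chd8+/- replicate 2 the E12.5 value turned to -0.33 (adjusted p = 0.852), and without replicate 3 it was 0.42 (adjusted p = 0.999). Without P5 Chd8+/- replicate 2 the P5 value rose to 0.34 and was called (adjusted p = 0.0302), as was Col3a1 at 0.28 (adjusted p = 0.0451). Without P5 Chd8+/- replicate 3 the Col1a1 value was 0.18 (adjusted p = 0.404). From E12.5 to P5 Col1a1 was 1.73-fold lower in Chd8+/+ (log2 -0.79, SE 0.280, adjusted p = 0.0179) and 1.78-fold lower in Chd8+/- (log2 -0.83, SE 0.280, adjusted p = 0.0133). These calls rest on single libraries. In Chd8+/+ the adjusted p was 0.0532 without E12.5 Chd8+/+ replicate 1 (log2 -0.70) and 0.0513 without P5 Chd8+/+ replicate 2 (log2 -0.75), and in Chd8+/- the value was -0.24 (adjusted p = 0.0897) without E12.5 Chd8+/- replicate 2 and -0.72 (adjusted p = 0.0510) without P5 Chd8+/- replicate 2.

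Col1a2 was highest and lowest in the same libraries as Col1a1 at E12.5 but not at P5. It was at 159, 119 and 144 CPM in E12.5 Chd8+/+, 101, 256 and 133 CPM in E12.5 Chd8+/-, 114, 104 and 106 CPM in P5 Chd8+/+ and 120, 95.4 and 128 CPM in P5 Chd8+/-. Again E12.5 Chd8+/- replicate 2 was the highest, and both genotypes overlapped at both stages. The genotype difference was 0.21 at E12.5 (SE 0.279, adjusted p = 0.979), with -0.27 (adjusted p = 0.853) without that library and 0.34 (adjusted p = 0.999) without replicate 3, and 0.10 at P5 (SE 0.0884, adjusted p = 0.574), with 0.22 (adjusted p = 0.0558) without P5 Chd8+/- replicate 2 and 0.024 (adjusted p = 0.915) without P5 Chd8+/- replicate 3. The stage difference was -0.38 in Chd8+/+ (SE 0.243, adjusted p = 0.155) and -0.51 in Chd8+/- (SE 0.243, adjusted p = 0.0649). Single libraries changed this comparison too. Without E12.5 Chd8+/- replicate 2 the Chd8+/- value was -0.032 (adjusted p = 0.820) and the Chd8+/+ value, at -0.39, was called (adjusted p = 0.00467). Leaving out E12.5 Chd8+/- replicate 1 gave -0.75 in Chd8+/- (adjusted p = 0.00252) and -0.39 in Chd8+/+ (adjusted p = 0.0498), and leaving out replicate 3 gave -0.62 in Chd8+/- (adjusted p = 0.0381).

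Col3a1 was at 392, 313 and 353 CPM in E12.5 Chd8+/+ and 256, 461 and 350 CPM in E12.5 Chd8+/-. Its P5 level was 78.1, 69.8 and 66.9 CPM in Chd8+/+ and 86.5, 65.4 and 85.6 CPM in Chd8+/-. The stages were far apart, with the lowest E12.5 library well above the highest P5 library. Col3a1 was 4.92-fold lower at P5 in Chd8+/+ (log2 -2.30, SE 0.174, adjusted p = 1.05e-08) and 4.49-fold lower in Chd8+/- (log2 -2.17, SE 0.173, adjusted p = 1.99e-08). The genotype difference was 0.013 at E12.5 (SE 0.176, adjusted p = 0.998), with -0.22 (adjusted p = 0.871) without E12.5 Chd8+/- replicate 2, and 0.16 at P5 (SE 0.0962, adjusted p = 0.409), with 0.11 (adjusted p = 0.637) without P5 Chd8+/- replicate 3.

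The balance between collagen chains, examined after their values had been seen, changed more between stages than between genotypes. The ratio of Col1a1 to Col1a2 counts was 0.788 ± 0.0158 in E12.5 Chd8+/+ and 0.791 ± 0.0655 in E12.5 Chd8+/- (SD, n = 3), with a two-sided exact permutation p of 1.00. At P5 it was 0.615, 0.590 and 0.583 in Chd8+/+ and 0.669, 0.657 and 0.628 in Chd8+/-, without overlap (exact permutation p = 0.10, the smallest that 3 against 3 can give). The ratio of Col3a1 to Col1a1 counts was 3.19 ± 0.114 in E12.5 Chd8+/+ and 2.99 ± 0.787 in E12.5 Chd8+/-, where replicate 2 was lowest at 2.08. By P5 it stood at 1.11 ± 0.0297 in Chd8+/+ and 1.06 ± 0.0181 in Chd8+/- (exact permutation p = 0.10). Per kilobase of exon, the Chd8+/+ mean of Col3a1 was above that of Col1a1 at E12.5 (35.9 and 16.9 RPKM) and below it at P5 (7.29 and 9.80 RPKM).

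Dcn and Lum encode decorin and lumican, small leucine-rich proteoglycans that bind collagen fibrils and regulate their diameter and spacing. Dcn was the steadiest member at E12.5, at 17.7, 16.2 and 17.1 CPM in Chd8+/+ and 16.5, 17.3 and 18.9 CPM in Chd8+/-. Its P5 level was 37.3, 36.2 and 34.2 CPM in Chd8+/+ and 40.6, 33.3 and 42.9 CPM in Chd8+/-. It was not raised in E12.5 Chd8+/- replicate 2, the library highest for the collagens. Dcn was 2.11-fold higher at P5 in Chd8+/+ (log2 1.08, SE 0.0857, adjusted p = 1.92e-08) and 2.21-fold higher in Chd8+/- (log2 1.15, SE 0.0859, adjusted p = 9.58e-09). Its genotype difference was 0.048 at E12.5 (SE 0.0713, adjusted p = 0.980), and -0.0093 without E12.5 Chd8+/- replicate 3. At P5 it was 0.13 (SE 0.0827, adjusted p = 0.431), with 0.23 (adjusted p = 0.0613) without P5 Chd8+/- replicate 2 and 0.067 (adjusted p = 0.730) without P5 Chd8+/- replicate 3.

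Lum, the neighbour of Dcn on chromosome 10, moved the opposite way between the stages. Its level was 63.9, 52.0 and 57.6 CPM in E12.5 Chd8+/+ and 45.4, 81.3 and 57.7 CPM in E12.5 Chd8+/-. By P5 it was down to 6.46, 5.19 and 6.14 CPM in Chd8+/+ and 6.18, 6.29 and 7.0 CPM in Chd8+/-, which rest on 226 to 347 reads. The fall was 9.73-fold in Chd8+/+ (log2 -3.28, SE 0.179, adjusted p = 2.17e-10) and 9.46-fold in Chd8+/- (log2 -3.24, SE 0.178, adjusted p = 2.45e-10), the steepest of the 8 genes. The genotypes overlapped at both stages, with differences of 0.087 at E12.5 (SE 0.175, adjusted p = 0.989) and 0.14 at P5 (SE 0.106, adjusted p = 0.503). Without E12.5 Chd8+/- replicate 2 the E12.5 value was -0.16 (adjusted p = 0.879), and without replicate 3 it was 0.13 (adjusted p = 0.999). The P5 value was 0.059 without Chd8+/+ replicate 2 (adjusted p = 0.822), 0.21 without Chd8+/+ replicate 1 (adjusted p = 0.544) and 0.095 without Chd8+/- replicate 3 (adjusted p = 0.731).

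Slc6a13 encodes GAT2, a sodium-dependent transporter of GABA and taurine found in leptomeninges, and it is counted here as a marker of maturing pial and arachnoid fibroblasts. At E12.5 it was scarce, at 1.14, 1.22 and 1.48 CPM in Chd8+/+ and 1.46, 0.872 and 1.27 CPM in Chd8+/-, from 39 to 71 reads. The lowest of these values, 0.872 CPM in replicate 2, has a 95% Poisson interval of 0.620 to 1.19 CPM, which covers counting error only. At P5 the gene was at 23.2, 22.0 and 25.8 CPM in Chd8+/+ and at 28.3, 20.8 and 28.7 CPM in Chd8+/-, with replicate 2 again the lowest Chd8+/- library. Slc6a13 rose 18.5-fold between the stages in Chd8+/+ (log2 4.21, SE 0.165, adjusted p = 4.65e-12) and 21.7-fold in Chd8+/- (log2 4.44, SE 0.169, adjusted p = 3.21e-12), the steepest rise of the 8 genes. The genotype difference was -0.096 at E12.5 (SE 0.221, adjusted p = 0.991), with 0.090 (adjusted p = 0.975) without Chd8+/- replicate 2 and -0.15 (adjusted p = 0.999) without replicate 3. The P5 difference was 0.15 (SE 0.113, adjusted p = 0.524), with 0.28 (adjusted p = 0.0890) without Chd8+/- replicate 2 and 0.078 (adjusted p = 0.798) without Chd8+/- replicate 3.

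Foxc1 encodes a forkhead transcription factor that is needed for the meninges to form and is made in meningeal mesenchyme and mural cells. Its level was 19.7, 14.1 and 19.2 CPM in E12.5 Chd8+/+ and 12.9, 21.3 and 18 CPM in E12.5 Chd8+/-, with overlap and a difference of -0.023 (SE 0.175, adjusted p = 0.996). The E12.5 difference was -0.19 (adjusted p = 0.895) without Chd8+/- replicate 2 and -0.050 (adjusted p = 0.999) without replicate 3. At P5 Foxc1 was at 9.83, 8.73 and 9.22 CPM in Chd8+/+ and 7.74, 8.19 and 8.57 CPM in Chd8+/-, so every Chd8+/- library lay below every Chd8+/+ library, opposite to the sign of the other 7 genes. The difference, -0.17 (SE 0.0807), was not called (adjusted p = 0.315), and was -0.19 (adjusted p = 0.353) without P5 Chd8+/- replicate 3. Foxc1 was 1.91-fold lower at P5 than at E12.5 in Chd8+/+ (log2 -0.93, SE 0.155, adjusted p = 5.83e-05) and 2.13-fold lower in Chd8+/- (log2 -1.09, SE 0.158, adjusted p = 1.49e-05).

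Aldh1a2 encodes RALDH2, the aldehyde dehydrogenase that makes retinoic acid in the meninges. Its levels at E12.5 were 2.08, 1.56 and 1.94 CPM in Chd8+/+ and 1.30, 1.77 and 6.71 CPM in Chd8+/-. The last value, from replicate 3, rests on 327 reads (95% Poisson interval 6.00 to 7.48 CPM), while the other E12.5 libraries held 51 to 108 reads, and the next highest value had an interval of 1.71 to 2.51 CPM. The E12.5 difference of 0.82 (SE 0.521, adjusted p = 0.945) rested on that library and was -0.28 (adjusted p = 0.999) without it, and 1.13 (adjusted p = 0.852) without replicate 2. At P5 Aldh1a2 was at 14.5, 15 and 13.5 CPM in Chd8+/+ and 15.7, 12.7 and 17.5 CPM in Chd8+/-, which overlapped, with a difference of 0.11 (SE 0.104, adjusted p = 0.612). Without P5 Chd8+/- replicate 3 the P5 value was 0.012 (adjusted p = 0.964) and without replicate 2 it was 0.23 (adjusted p = 0.144). The rise between the stages was 7.66-fold in Chd8+/+ (log2 2.94, SE 0.405, adjusted p = 9.01e-06) and 4.58-fold in Chd8+/- (log2 2.20, SE 0.380, adjusted p = 8.65e-05). Without E12.5 Chd8+/- replicate 3 the log2 value in Chd8+/- was 3.32, above that of Chd8+/+.

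The interaction of genotype and stage was -0.045 for Col1a1 (SE 0.394), -0.13 for Col1a2 (SE 0.343), 0.13 for Col3a1 (SE 0.235), 0.069 for Dcn (SE 0.121) and 0.040 for Lum (SE 0.245). It was 0.23 for Slc6a13 (SE 0.254), -0.16 for Foxc1 (SE 0.221) and -0.74 for Aldh1a2 (SE 0.556), with adjusted p from 0.671 (Aldh1a2) to 0.984 (Col1a1). Each value was smaller than its SE or within 1.5 times it.

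Libraries of the same genotype differed from each other at E12.5 more widely for 7 of the members than for most genes, with Dcn the exception. The SD of log2 CPM within genotypes had a median of 0.321 over the 8 members, against 0.109 over 18071 genes. Aldh1a2 (SD 0.888, percentile 99.5), Col1a1 (0.587, percentile 97.7) and Col1a2 (0.511, percentile 96.2) were the most spread and Dcn (0.0818, percentile 36.5) the least. The highest E12.5 library exceeded the lowest 2.91-fold for Col1a1, 5.15-fold for Aldh1a2 and 1.16-fold for Dcn. At P5 the median SD was 0.165, against 0.0921 over all genes, with Slc6a13 the most spread (0.204, percentile 77.2) and Foxc1 the least (0.0798, percentile 43.7). The ratio of highest to lowest at P5 lay between 1.27 (Foxc1) and 1.38 (Slc6a13 and Aldh1a2). Percentiles are descriptive, since members share libraries. Without E12.5 Chd8+/- replicate 2 the E12.5 median SD was 0.232, against 0.10 over all genes, with Col1a1 at 0.236 (percentile 80.8) and Col1a2 at 0.238 (percentile 80.9), and without E12.5 Chd8+/- replicate 3 Aldh1a2 was at 0.245 (percentile 78.7). Without P5 Chd8+/- replicate 2 the P5 median SD was 0.0908, against 0.0876 over all genes.

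The libraries that carried this spread were the same for several members. Relative to the median of the 6 E12.5 libraries, the mean log2 deviation over the 8 genes was 0.12, -0.18 and 0.062 in Chd8+/+ and -0.32, 0.31 and 0.23 in Chd8+/-. The 0.23 of Chd8+/- replicate 3 rested on Aldh1a2 (1.83), with the other members between -0.078 and 0.13 there. Replicate 1 of E12.5 Chd8+/- was the lowest library for 6 of the 8 genes, and replicate 2 the highest for 5 and the lowest for 1 (Slc6a13). At P5 the mean deviations were 0.046, -0.085 and -0.048 in Chd8+/+ and 0.11, -0.14 and 0.19 in Chd8+/-. There, replicate 2 of Chd8+/- was the lowest for 5 genes and replicate 3 the highest for 5.

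**Figure D3:**
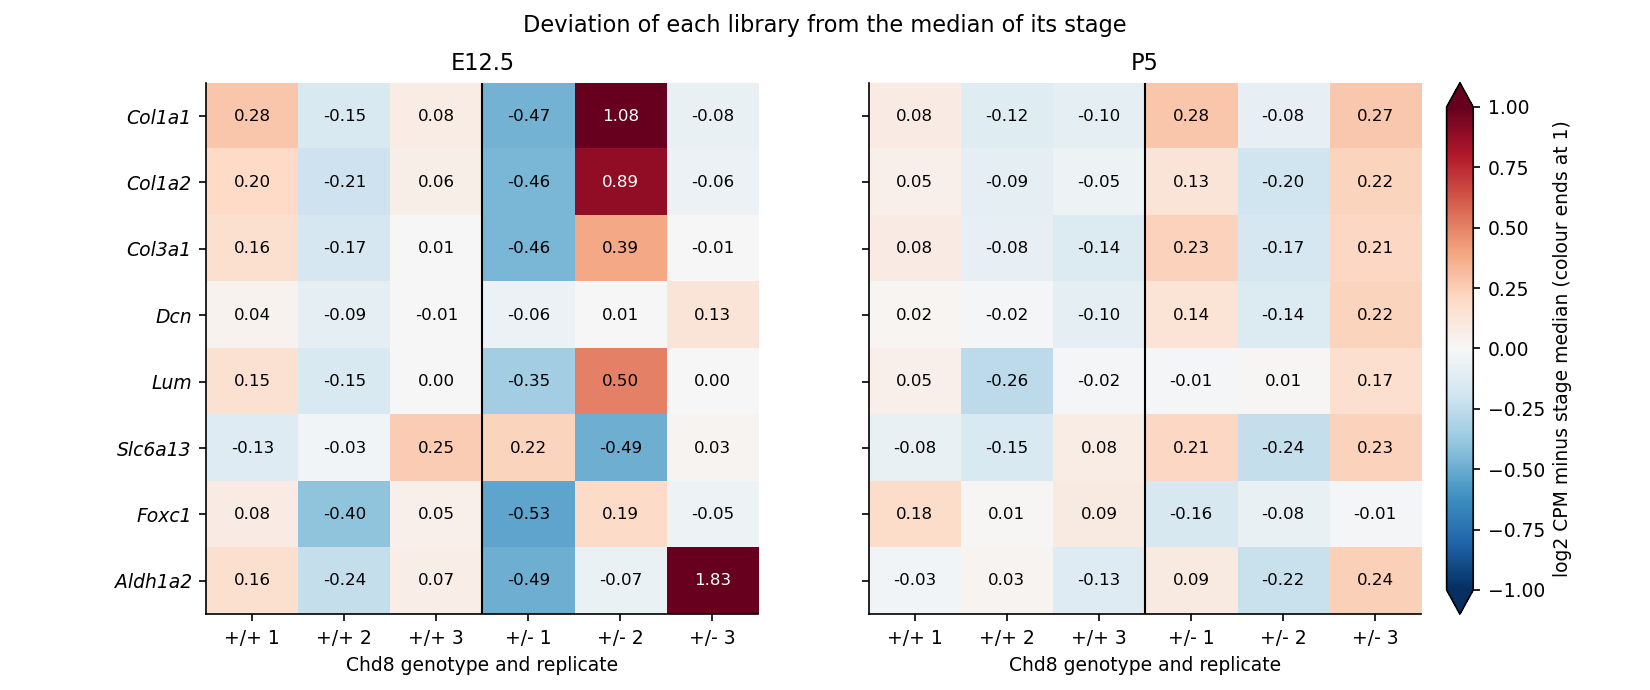
Log2 CPM of each gene in each library minus the median of the 6 libraries of its stage, with genes in lines and libraries in columns, E12.5 on the left and P5 on the right. At E12.5 the collagens, Lum and Foxc1 share a low library (Chd8+/- replicate 1, mean deviation -0.32) and a high one (Chd8+/- replicate 2, 0.31), and the P5 deviations are smaller.

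Covariation was then measured over the 6 libraries of each stage, for the 28 pairs of members per stage and 56 in all. All libraries of a stage share a count table, and both genotypes entered each value, so r was also computed with the genotype means removed. At E12.5 the median Pearson r was 0.36 (Spearman 0.54, 0.37 with the genotype means removed), against 0.001 over all pairs of genes, with 21 pairs above 0 and 7 below. An r of at least 0.8 was reached by 11 of 28 pairs, against 3.60% of all gene pairs. At P5 the median r was 0.75 (Spearman 0.66, 0.74 with the means removed), against 0.006, with 22 pairs above 0 and 6 below, and 10 of 28 pairs at 0.8 or more, against 4.92%. By exact permutation over the 720 orders of 6 libraries, 9 pairs at E12.5 and 4 at P5 had a Benjamini-Hochberg adjusted p under 0.05 for Pearson r, and 6 and 0 for Spearman rho. Leaving out 1 library at a time gave medians of 0.20 to 0.76 at E12.5 and 0.60 to 0.79 at P5.

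The pairs fell into different blocks at the 2 stages. At E12.5 Col1a1, Col1a2, Col3a1, Lum and Foxc1 rose and fell together, with r of 0.82 to 1.00 in their 10 pairs, 0.91 to 1.00 without Chd8+/- replicate 2 and 0.73 to 1.00 without Chd8+/- replicate 1. The same 10 pairs ran from -0.36 to 0.97 at P5. Slc6a13 went against the collagens and Lum at E12.5 (r from -0.88 to -0.79), and from -0.56 to -0.46 without Chd8+/- replicate 2. Its E12.5 levels rest on 39 to 71 reads per library, so counting error enters these values. At P5 the collagens, Dcn, Slc6a13 and Aldh1a2 moved together, with r of 0.73 to 0.97 in 15 pairs, 0.54 to 0.98 without Chd8+/- replicate 2 and 0.57 to 0.97 without Chd8+/- replicate 3. At E12.5 those 15 pairs ran from -0.88 to 1.00. Foxc1 stood outside at P5 (r from -0.36 to 0.04) and Lum was intermediate (0.27 to 0.63 with the members other than Foxc1). Only 4 pairs had r of at least 0.8 at both stages, namely the 3 collagen pairs and Dcn with Aldh1a2. Dcn spanned only 1.16-fold over the E12.5 libraries. These blocks were drawn after the values were seen, and no test was made of them.

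**Figure D4:**
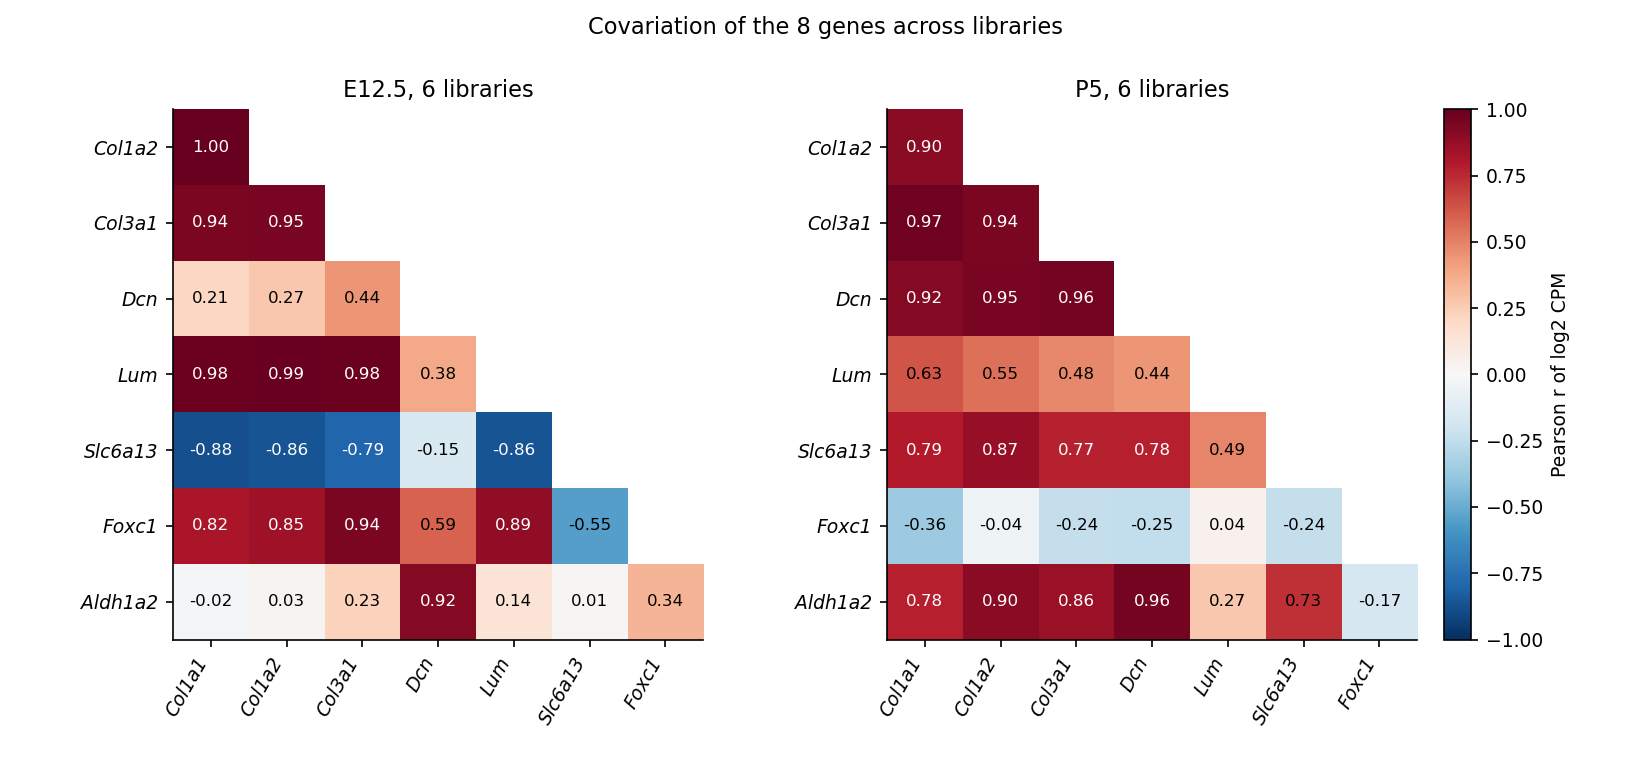
Pearson r of log2 CPM between each pair of the 8 genes over the 6 libraries of E12.5 (left) and of P5 (right). The block of high r at E12.5 holds the collagens, Lum and Foxc1 (0.82 to 1.00), and that at P5 the collagens, Dcn, Slc6a13 and Aldh1a2 (0.73 to 0.97).

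Some pairs were examined in full because of what the proteins do. The type I collagen chains, Col1a1 and Col1a2, had r = 1.00 and rho = 1.00 at E12.5 (exact permutation p = 0.00139, the smallest that 720 orders can give, and 0.00278; adjusted 0.0292 and 0.0259), and r = 0.98 without the 2 libraries farthest from the median. At P5 the pair had r = 0.90 (exact permutation p = 0.0222, adjusted 0.0691) and rho = 0.77 (exact permutation p = 0.103, adjusted 0.25), and r = 0.69 without the 2 farthest libraries. The neighbouring genes Dcn and Lum had r = 0.38 at E12.5 (exact permutation p = 0.453, adjusted 0.634) and 0.44 at P5 (exact permutation p = 0.393, adjusted 0.579), with rho of 0.71 and 0.49. Without the 2 farthest libraries these became 0.74 and -0.21, so the P5 relation rested on those libraries. For Foxc1 and Aldh1a2 r was 0.34 at E12.5 (exact permutation p = 0.568, adjusted 0.758) and -0.17 at P5 (exact permutation p = 0.756, adjusted 0.846), with rho of 0.49 and -0.26 and, without the 2 farthest libraries, r of -0.83 and 0.06. The pair of Slc6a13 and Aldh1a2, both high at P5, had r = 0.01 at E12.5 (exact permutation p = 0.979, adjusted 0.979; rho -0.09) and 0.73 at P5 (exact permutation p = 0.106, adjusted 0.204; rho 0.77). Without P5 Chd8+/- replicates 2 and 3 the P5 value was 0.18. Dcn and Aldh1a2, singled out after the values were seen, had r = 0.92 at E12.5 (rho 0.89) and 0.96 at P5, and 0.81 at E12.5 without Chd8+/- replicate 3, the library with high Aldh1a2.

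Genes whose levels most resembled the mean of the 8 members, over the 6 libraries of a stage, differed between the stages. At E12.5 this mean was raised in Chd8+/- replicate 3 by Aldh1a2 (1.83 above the stage median in log2). No ranking without that library is given. At E12.5 the top 10 were Fhl2 (r = 0.995), Creb3l2 (0.993), 1110003F10Rik (0.990), Dusp7 and Tgfbi (both 0.985), Kcnn4 (0.979), Lhfpl2 (0.978), Fam117a, Tirap and Zcchc24 (each 0.977). Creb3l2 encodes a membrane-bound transcription factor of the secretory pathway, and Tgfbi a secreted collagen-binding matrix protein, at 11.9 to 24.9 CPM. At P5 they were Gm26543 (0.993), Chrnb4 (0.990), Slc6a12 (0.980), Tmem53 (0.978), Ttpal (0.976), H19 (0.975), Nudt5 (0.974), Pcp4 and Thbd (each 0.972) and Gm3052 (0.971). Slc6a12, which encodes the betaine and GABA transporter BGT1, is a paralogue of Slc6a13 and was at 1.83 to 3.17 CPM. H19, an imprinted noncoding RNA gene, and Thbd, which encodes thrombomodulin, had r of 0.93 and 0.92 at E12.5 as well. The other named genes with a value at the other stage ran there from -0.74 (Gm3052) to 0.48 (Chrnb4), with Creb3l2 at -0.59 and Tgfbi at -0.14. Some were near the floor or nearly flat at P5, such as Gm26543 (0.141 to 0.345 CPM), Chrnb4 (0.235 to 0.409 CPM) and Ttpal (56.3 to 60.9 CPM). With 6 points per gene, 196 of 18071 genes at E12.5 and 96 of 18666 at P5 reached 0.9.

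The wider matrix and meningeal genes were read from 5 lists. By edgeR no gene of any list was called for genotype at either stage or in the interaction. DESeq2 called none of them at E12.5 or in the interaction, where fewer of them had an adjusted p, and at P5, where it called 5.28% of all genes, it called 1 of 34 matrix genes, 2 of 24 meningeal layer genes, 3 of 15 retinoic acid genes, 1 of 15 signal and receptor genes and 3 of 7 basement membrane genes. For the 34 genes of fibroblast matrix and collagen assembly the median genotype difference was 0.14 at E12.5, with 25 of 34 above 0, and 0.048 at P5, with 21 of 34 above 0, against medians of 5.8e-04 and 0.0017 over all genes. The E12.5 shift rested on Chd8+/- replicate 2, which had the highest matrix sum (2193 CPM), and without it the median was -0.085, with 8 of 34 above 0. Col14a1, a fibril-associated collagen, had the smallest p at E12.5 (log2 1.06, SE 0.271, adjusted p = 0.924, DESeq2 0.146) and Timp3, a metalloproteinase inhibitor, at P5 (log2 -0.23, adjusted p = 0.109, DESeq2 0.0101). At an unadjusted p under 0.05 there were 4 of 34 at E12.5, against 5.15% of all genes, and 11 of 34 at P5, against 17.8%. Of the list of meningeal layers and their transcription factors, 30 of 35 genes passed the filter at E12.5 (median 0.061, and -0.052 without Chd8+/- replicate 2) and all 35 at P5 (median 0.15, and 0.056 without Chd8+/- replicate 3), where Wnt6 (log2 0.68, adjusted p = 0.110) and Foxp2 (log2 -0.43, adjusted p = 0.117, DESeq2 0.00169) had the smallest p. Foxp2 is also a gene of deep-layer cortical and striatal neurons, and the summed markers of ganglionic eminence and striatum were at 448 to 479 CPM in P5 Chd8+/+ and 356 to 424 CPM in P5 Chd8+/-, whose part in its value was not tested. The 7 collagen IV and nidogen genes of the basement membrane, on which the pia rests, were below 0 in all 7 at E12.5 (median -0.13) and in 6 of 7 at P5 (median -0.15), with Col4a1 at -0.17 and -0.24 (adjusted p = 0.104 at P5, DESeq2 0.00116). Vessels also make these proteins, and the summed endothelial markers moved with them, at 330 to 338 CPM in Chd8+/+ against 292 to 307 CPM in Chd8+/- at E12.5 and 303 to 341 CPM against 269 to 301 CPM at P5. Their part in the result was not tested. DESeq2 called Col4a1, Col4a2 and Nid1 at P5, all lower in Chd8+/-.

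Genes of the retinoic acid pathway and of meningeal signals were read in the same way. Of 18 genes of the retinoic acid pathway, 15 were tested at E12.5 (median genotype difference 0.057) and 16 at P5 (median -0.016). Rxrg, a retinoid receptor, had the smallest p at P5 (log2 -0.32, adjusted p = 0.0950, DESeq2 5.96e-04), and Cyp26b1, which degrades retinoic acid, at E12.5 (log2 0.44). Of the 3 genes of this list called by DESeq2 at P5, Rxrg and Rarb (log2 -0.33, adjusted p = 0.198, DESeq2 0.0466) were lower in Chd8+/- and Rxrb (log2 0.18, adjusted p = 0.116, DESeq2 0.0233) was higher. Rxrg and Rarb are also striatal genes, and the part of the lower striatal marker sum in P5 Chd8+/- in their values was not tested. For the 16 meningeal signals and their cortical receptors the medians were -1.3e-04 and -0.091, with 8 and 4 of 16 above 0, and Lama1, a laminin chain, had the smallest p at P5 (log2 -0.34, adjusted p = 0.116, DESeq2 0.0163).

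Between the stages each list is read against 41.4% of all genes called higher and 41.7% lower in Chd8+/+, 41.3% and 41.6% in Chd8+/-. The matrix list had genes called both ways, with 17 of 34 called higher and 13 lower at P5 in Chd8+/+ (median 0.24) and 14 and 13 in Chd8+/- (median 0.11). The medians over the 8 members were -0.59 and -0.67, and over all genes -0.018 and -0.0046. Serpinh1, the collagen chaperone HSP47, fell from 326 to 67.7 CPM in Chd8+/+ (log2 -2.27, SE 0.0822, adjusted p = 1.94e-12; Chd8+/- log2 -2.23), and Timp2, a metalloproteinase inhibitor also made by neural cells, rose from 68.5 to 450 CPM (log2 2.72; 2.60 in Chd8+/-). Of the meningeal layer genes, 14 of 35 were called higher and 17 lower in each genotype. For both lists the share called in all was close to that of all genes (83.1% and 82.9%). Ptgds, the prostaglandin D synthase of arachnoid and choroid plexus, rose from 0.348 to 350 CPM in Chd8+/+ (log2 9.96, adjusted p = 3.06e-15; 9.89 in Chd8+/-), while Crabp2, a retinoic acid binding protein gene, fell from 86.2 to 3.98 CPM (log2 -4.43; -4.04 in Chd8+/-). In the retinoic acid list 9 genes were called higher and 2 lower in Chd8+/+, and 11 and 3 in Chd8+/-, with Cyp26b1 up from 2.06 to 34.0 CPM beside Aldh1a2 (log2 4.04; 3.49 in Chd8+/-). The signals and receptors were called higher for 3 and lower for 9 of 16 (3 and 10 in Chd8+/-), among them Ackr3, a chemokine CXCL12 receptor (log2 -2.16; -2.45), and the basement membrane genes were called lower for 6 of 7 and higher for none, led by Hspg2, which encodes perlecan (log2 -1.77; -1.81).

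**Figure D5:**
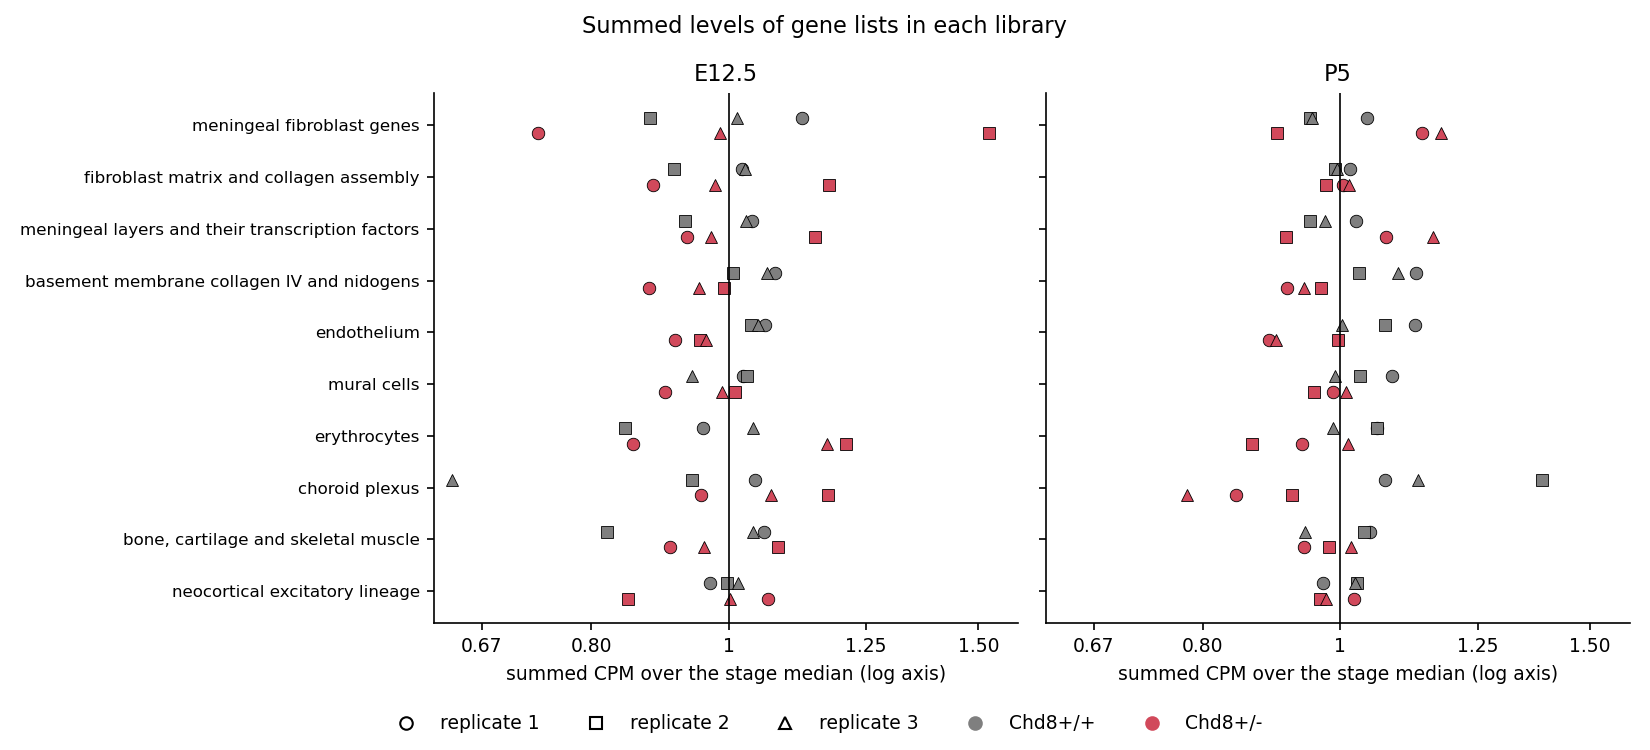
Summed CPM of each gene list in each library divided by the median of the 6 libraries of its stage, on a log axis, by genotype. The 8 meningeal fibroblast genes vary from 510 to 1061 CPM at E12.5, more widely than the endothelial list (292 to 338 CPM), which is separated by genotype.

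Markers of other cell types that could be in the dissected tissue were summed for each library and their part in the results was not tested. Endothelial markers (12 genes), with the ranges given above, were lower in Chd8+/- without overlap at either stage and against the sign of most members. Mural cell markers (12 genes), which bear on Foxc1, were at 140 to 153 CPM and 134 to 150 CPM at E12.5 and at 329 to 361 CPM and 318 to 335 CPM at P5. Choroid plexus markers (11 genes) were at 93.5 to 153 CPM and 140 to 172 CPM at E12.5, and at 455 to 587 CPM and 330 to 391 CPM at P5, where they did not overlap. At P5 ganglionic eminence and striatum markers (14 genes) were lower in Chd8+/- as well with the ranges given above, after 649 to 696 CPM in Chd8+/+ and 582 to 691 CPM in Chd8+/- at E12.5. No marker of these 4 lists was at 0 throughout a group.

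Markers of bone, cartilage and skeletal muscle, among them other sources of fibrillar collagen (18 genes), were at 259 to 334 CPM in Chd8+/+ and 287 to 342 CPM in Chd8+/- at E12.5, where 4 of 18 reached 1 CPM and Matn1 and Myog were at 0 in Chd8+/+. At P5 they were at 53.1 to 59.0 CPM and 53.0 to 57.2 CPM. Skin markers (10 genes) were at 14.1 to 15.1 CPM and 15.9 to 20.8 CPM at E12.5, with Krt14 and Krt15 at 0 in Chd8+/+, and at 31.5 to 36.1 CPM and 34.2 to 35.9 CPM at P5. Erythrocyte markers (10 genes) were at 3237 to 3989 CPM and 3281 to 4633 CPM at E12.5, and at 122 to 131 CPM and 107 to 125 CPM at P5. Microglial markers (12 genes) were at 55.6 to 60.7 CPM and 53.6 to 60.5 CPM at E12.5, and at 179 to 238 CPM and 179 to 207 CPM at P5. The neocortical markers (15 genes), all at 1 CPM or more, summed to 1584 to 1674 CPM and 1577 to 1665 CPM at P5, and E12.5 Chd8+/- reached from 1335 to 1678 CPM. Over the E12.5 libraries, the median r with the mean of the members was 0.91 for erythrocyte genes (7 of 10 at 0.8 or more), 0.79 for the matrix list (15 of 34), 0.44 for meningeal layers (8 of 30) and -0.51 for neocortical genes. It was 0.59 for the basement membrane list, 0.49 for signals and receptors, 0.45 for bone, cartilage and muscle, and between -0.31 and 0.25 for the other lists, against 0.04 over all genes, of which 4.09% reached 0.8. With 1 library left out the E12.5 medians were 0.88 to 0.92 for erythrocyte genes, 0.71 to 0.89 for the matrix list, 0.44 to 0.72 for meningeal layers, 0.46 to 0.57 for bone, cartilage and muscle, 0.32 to 0.59 for signals and -0.69 to -0.42 for neocortical genes. Without Chd8+/- replicate 1 the basement membrane median turned to -0.12 and that of endothelium from 0.10 to -0.72, and that of skin rose from 0.23 to 0.68. At P5 it was 0.47 for the matrix list (7 of 34), 0.53 for meningeal layers (11 of 35), 0.07 for erythrocyte genes, -0.49 for endothelium, -0.54 for choroid plexus and -0.57 for ganglionic eminence and striatum, and between -0.27 and 0.13 for the other lists, against -0.04 over all genes, of which 2.04% reached 0.8. With 1 library left out the P5 medians were 0.34 to 0.63 for the matrix list, 0.36 to 0.67 for meningeal layers, -0.78 to -0.25 for endothelium, -0.88 to -0.32 for choroid plexus and -0.73 to -0.49 for ganglionic eminence and striatum. Without Chd8+/- replicate 2 erythrocyte genes turned to -0.25, signals to -0.35 and the retinoic acid list from 0.07 to -0.28. The basement membrane list went from -0.08 to -0.52 without that library, and neocortical genes turned from -0.27 to 0.28 without Chd8+/- replicate 3.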

How the data were processed

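RNA-seq libraries of mouse neocortex were made with a dUTP stranded protocol and sequenced in 2 runs per library. The authors trimmed reads with Trim Galore 0.4.1, checked them with FastQC 0.11.2, aligned them with TopHat2 2.1.0 and deposited raw counts per Ensembl gene (GRCm38) from featureCounts 1.5.0, as 1 table per stage. The P5 counting command sets no strand and that for E12.5 is not recorded, so reads of overlapping genes on opposite strands may not be separated. The authors tested genotype with DESeq2 1.10.1.

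Here, runs were summed per library (38774591 to 54695236 counted reads). Each comparison was fitted on the whole table with edgeR 4.0.16 in R 4.3.3, using TMM scaling, the default filter on low counts, quasi-likelihood tests and Benjamini-Hochberg adjustment at 0.05. Genotype was tested on 6 libraries per stage, and stage and interaction on all 12. Log2 CPM for correlations used a prior count of 2. Correlations, levels and figures were computed in Python 3.11.15 with numpy 2.4.6, pandas 2.3.3, scipy 1.17.1 and matplotlib 3.10.9. RPKM used merged exon length. The tests across genes were tested on simulated data.

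The members and lists were chosen with earlier results of these data known. The genes named were the 8 members, Chd8, up to 4 genes per pathway list and comparison with the smallest p, and the 10 genes per stage most like the mean of the members, and others are marked where they were chosen after their values were seen. Leaving out libraries for the lists, the spread and the likeness was added after seeing the data. A library stood apart for a gene where it held at least 1.5 times the highest of the other 5 and at least 1 CPM. Alternatives were DESeq2 1.42.0, no filter, another prior count, DESeq2 size factors, upper quartile or library totals for scaling, all 12 libraries in 1 model, a stage fit on the 6 libraries of 1 genotype, a replicate block and leaving out each library.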

Additional observations from a re-analysis of the deposited data

How the results depend on the processing

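Of 268 values of single members under settings other than leaving out a library, 261 kept their direction and side of the threshold. The exceptions were Col3a1 at E12.5 (-0.022) and the Col1a1 interaction (0.0085) under the replicate block, Col1a1 at P5 without the filter (0.23, adjusted p = 0.0146), Col1a1 between stages in Chd8+/+ by DESeq2 (-0.74, adjusted p = 0.0571), and Col1a2 between stages, called without the filter (-0.39 in Chd8+/+, adjusted p = 0.0226, and -0.51 in Chd8+/-, adjusted p = 0.00230) and in the Chd8+/+ libraries alone (-0.38, adjusted p = 0.00105). The cause was not tested.

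Genes called for genotype at E12.5 numbered 1, and 5 by DESeq2, 13 without the filter, 2 with all 12 libraries in 1 model and 0 to 2 with 1 library left out. At P5 they numbered 1, and 653 by DESeq2 (32.5% of them higher in Chd8+/-), 995 without the filter (38.0% higher), 4 with all 12 libraries and 1 to 327 with 1 library left out. In the interaction they numbered 0, and 8 by DESeq2, 17 without the filter and 0 to 2 with 1 library left out. Stage calls ranged from 15968 to 16669 in Chd8+/+ and from 15959 to 16488 in Chd8+/- with 1 library left out.

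Replicate numbers were shared between groups, and the labels do not say whether they pair the libraries. The deviations of same-numbered libraries correlated at -0.1555, -0.0635 and -0.0494 at E12.5 and at 0.1869, 0.0783 and 0.0384 at P5. Differently numbered libraries of the 2 genotypes ran from -0.0745 to 0.1426 at E12.5 and from -0.1379 to 0.0719 at P5. These values do not settle whether the P5 libraries were paired. With a replicate block 0 genes were called at E12.5 and 4 at P5 (606 and 2554 at an unadjusted p under 0.05, edgeR).

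Leaving out 1 library gave E12.5 differences of -0.33 to 0.53 for Col1a1, -0.27 to 0.46 for Col1a2, -0.22 to 0.20 for Col3a1, -0.0093 to 0.089 for Dcn, -0.16 to 0.26 for Lum, -0.25 to 0.090 for Slc6a13, -0.19 to 0.15 for Foxc1 and -0.28 to 1.19 for Aldh1a2. The interaction ranged from -0.29 to 0.55 for Col1a1, -0.35 to 0.36 for Col1a2, -0.034 to 0.37 for Col3a1, -0.0055 to 0.17 for Dcn, -0.11 to 0.30 for Lum, 0.052 to 0.40 for Slc6a13, -0.31 to 0.015 for Foxc1 and -1.08 to 0.39 for Aldh1a2. Of 384 such member values 349 kept direction and side of the threshold, 25 reversed, 4 lost a call and 6 gained one. Depth limits Slc6a13 and Aldh1a2 at E12.5 (39 to 71 reads and, outside Chd8+/- replicate 3, 51 to 108 reads).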
